A study of Mus musculus with 4 samples.

Results

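Transcription factors of spermatogonia, the mitotic germ cells of the testis, were examined in ribosome footprints of whole mouse testes. The members were 10 genes, chosen by name for the stage they are known to mark, out of 14984 genes in the deposited table. Of these, 7 mark undifferentiated spermatogonia (Zbtb16, Sall4, Foxo1, Etv5, Bcl6b, Egr4 and Id4) and 3 mark differentiating spermatogonia (Sohlh1, Sohlh2 and Dmrtb1). All 10 were found in the table, and 9 passed the filter on low reads. The exception was Id4.

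Testes were taken at day 10 from Eif5 cKO mice (2 samples) and from control mice (2 samples). In the Eif5 cKO, Eif5 fl/fl mice carried a Stra8-Cre transgene, whose recombinase acts in male germ cells. Eif5 encodes the initiation factor that triggers GTP hydrolysis on the scanning ribosome. The alleles carried by the control mice, the number of animals behind each sample and the strain are not stated in the labels. Whether the replicates are separate animals is likewise not stated, so the p-values reflect the spread among these libraries, part or all of which may be technical. The tissue was whole testis, so somatic cells, and any germ cells that escaped the recombinase, were part of every library.

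Undifferentiated spermatogonia include the stem cells of spermatogenesis. They respond to the growth factor GDNF made by Sertoli cells, and several of the factors studied here (Etv5, Bcl6b and Id4) are known as GDNF-responsive genes. Retinoic acid then moves spermatogonia into the differentiating state, in which the helix-loop-helix proteins SOHLH1 and SOHLH2 act as partners and DMRTB1, a DM-domain protein, controls the passage from mitosis to meiosis. A footprint is a piece of mRNA protected by a translating ribosome. In whole tissue, fewer cells of a type, less RNA per cell and less translation per RNA cannot be told apart from footprints alone.

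Helix-loop-helix proteins such as SOHLH1 and SOHLH2 bind E-boxes. The promoters of the 3 differentiating factors are shown because all 3 had negative fold changes, though 0 of them passed an adjusted p of 0.05. RefSeq promoter sequence (GRCm38.p6, from 250 bases before to 50 bases after a start site) was matched for 7 of the 10 members. Capitals mark the E-box letters CANNTG, searched on both strands, where the motif reads the same. Neighbouring matches may overlap. Sohlh1 is on the minus strand at chr2:25847199-25847498, Sohlh2 on the plus strand at chr3:55181794-55182093, and Dmrtb1 has start sites on the minus strand at chr4:107684181-107684480 and chr4:107683540-107683839. The annotated span of Dmrtb1 reaches further upstream, to 107704011, and no promoter at that end is shown. For Sohlh1 and Sohlh2 the start site lies at the upstream end of the annotated span.
Sohlh1: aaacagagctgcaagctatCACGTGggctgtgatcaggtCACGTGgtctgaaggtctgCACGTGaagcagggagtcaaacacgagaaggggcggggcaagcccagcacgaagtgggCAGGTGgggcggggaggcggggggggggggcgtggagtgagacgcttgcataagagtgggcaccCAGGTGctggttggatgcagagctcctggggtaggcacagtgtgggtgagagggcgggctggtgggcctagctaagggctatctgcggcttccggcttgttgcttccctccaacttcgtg
Sohlh2: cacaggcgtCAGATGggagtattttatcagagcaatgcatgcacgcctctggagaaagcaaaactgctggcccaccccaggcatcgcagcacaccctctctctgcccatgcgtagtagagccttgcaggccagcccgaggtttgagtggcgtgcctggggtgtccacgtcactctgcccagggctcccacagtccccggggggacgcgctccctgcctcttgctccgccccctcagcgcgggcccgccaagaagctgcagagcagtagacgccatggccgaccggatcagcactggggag
Dmrtb1, upstream start: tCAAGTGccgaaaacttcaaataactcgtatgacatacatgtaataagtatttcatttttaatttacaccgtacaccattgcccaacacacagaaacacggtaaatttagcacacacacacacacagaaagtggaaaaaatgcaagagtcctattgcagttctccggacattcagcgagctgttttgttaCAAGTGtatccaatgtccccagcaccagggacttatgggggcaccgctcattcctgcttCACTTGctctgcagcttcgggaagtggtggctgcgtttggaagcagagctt
Dmrtb1, downstream start: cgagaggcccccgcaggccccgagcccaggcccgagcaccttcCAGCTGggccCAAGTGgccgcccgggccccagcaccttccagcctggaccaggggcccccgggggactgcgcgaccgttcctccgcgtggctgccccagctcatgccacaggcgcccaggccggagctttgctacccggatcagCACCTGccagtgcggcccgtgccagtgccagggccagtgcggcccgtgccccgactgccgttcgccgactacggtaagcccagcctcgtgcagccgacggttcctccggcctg
The Sohlh1 promoter held 5 E-boxes, of which 3 were the palindrome CACGTG. Each Dmrtb1 promoter held 3 E-boxes and the Sohlh2 promoter held 1. For comparison, 72.3% of 32851 promoters of this length held at least 1 E-box, 17.6% held 3 or more and 2.1% held 5 or more. The palindrome, looked for after the Sohlh1 sequence had been read, occurred 3 or more times in 0.0883% of promoters. Among undifferentiated factors, the promoters of Foxo1 and Egr4 held 1 E-box each, that of Id4 held 0, and those of Etv5 held 2 and 0. These counts describe the letters and do not show binding, and a link between E-boxes and the fold changes was not tested.

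Depth was 2296938 and 2782527 reads in Eif5 cKO replicates 1 and 2, and 2934609 and 2225964 in control replicates 1 and 2. Values are the deposited footprint signal, which is reads divided by a size factor for each library, so that a value of 100 is close to 100 reads in a library of average depth. The values are not per length. Shares and ratios of reads between genes, given further on, are therefore compared across libraries and do not show that 1 gene had a higher level than another. Eif5, the deleted gene, had values of 173 and 266 in Eif5 cKO, against 365 and 304 in control. The log2 fold change was -0.63 (SE 0.25) and did not pass (limma, adjusted p = 0.319). It was -0.33 and -0.94 without Eif5 cKO replicates 1 and 2 in turn, -0.50 and -0.77 without control replicates 1 and 2, and -1.09 when libraries were scaled on the Sertoli cell list, and it passed in none of these fits.

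Of the 9 spermatogonial factors tested, 0 passed an adjusted p of 0.05 in limma with Benjamini-Hochberg adjustment over 12095 genes, where 0.678% of all genes passed (0.604% lower and 0.0744% higher in Eif5 cKO). At an unadjusted p under 0.05 there were 2, Dmrtb1 and Sohlh2, against 10.6% of all genes. edgeR on the recovered reads also called 0 members, with 2 at an unadjusted p under 0.05, and DESeq2 and limma-voom called 0 each, with 1 and 2 at that unadjusted level. The 3 differentiating factors had log2 fold changes of -1.76, -0.94 and -0.48, with a median of -0.94. The 6 undifferentiated factors tested were split, 3 negative and 3 positive, from -0.45 to 0.93, with a median of -0.05. With no filter on low reads, which brought in Id4, the median of all 7 was -0.19, and it was also -0.19 with at least 50 reads in 2 libraries, which left out Bcl6b and Id4. When libraries were scaled on the Sertoli cell list, 2 of the positive values (Foxo1 and Etv5) turned negative. That scaling moved the median of all genes tested to -0.45. With the deposited scaling, the median of all genes tested was 0.003. The groups did not overlap at the deposited scaling for Dmrtb1 and Sohlh2, which were lower in Eif5 cKO, and for Foxo1, which was higher. Scaled on library totals, the groups of Sohlh2 and Foxo1 overlapped and those of Dmrtb1 did not. Over all genes tested, 20.9% did not overlap with Eif5 cKO lower and 20.0% with Eif5 cKO higher.

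**Figure D1:**
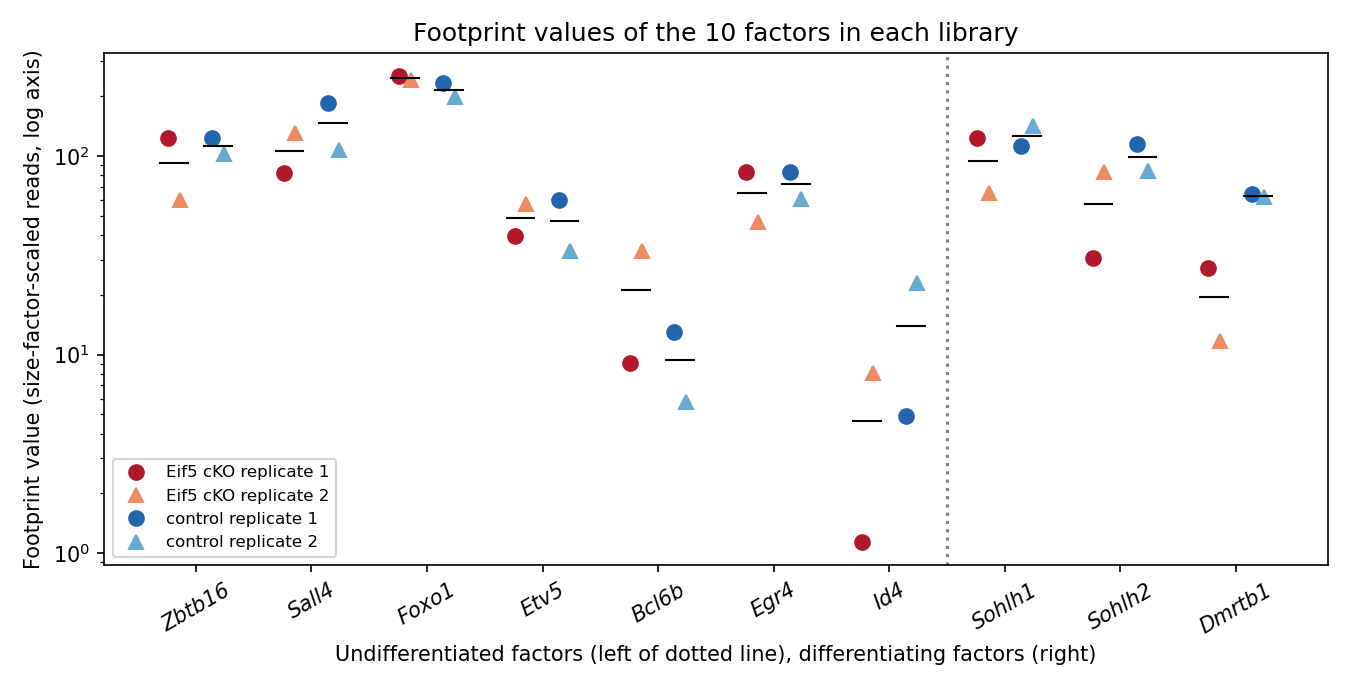
Footprint value (size-factor-scaled reads, log axis) of each of the 10 factors, with Eif5 cKO replicates in red shades to the left of control replicates in blue shades; short lines are group means (n = 2 each). Dmrtb1 is the factor whose groups lie clearly apart, at 27.3 and 11.7 in Eif5 cKO against 64.5 and 62.0 in control, and Foxo1 values lie close together in all 4 libraries.

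Dmrtb1 (chromosome 4, 107676288 to 107704011, GRCm38) had values of 27.3 and 11.7 in Eif5 cKO replicates 1 and 2, against 64.5 and 62.0 in control replicates 1 and 2. Both Eif5 cKO libraries were low and the controls were nearly equal. The mean was 19.5 ± 11.0 in Eif5 cKO and 63.2 ± 1.76 in control (SD, n = 2 each), so the control mean was 3.25 times the Eif5 cKO mean. These values rest on 24 and 13 reads in Eif5 cKO, against 79 and 54 reads in control. The exact 95% Poisson intervals were 15.4 to 35.7 and 6.92 to 22.2 reads in Eif5 cKO, and 62.5 to 98.5 and 40.6 to 70.5 reads in control. This made a log2 fold change of -1.76 (SE 0.49, 95% interval -2.75 to -0.78), with 1.06% of all genes tested at or below it, and a limma adjusted p of 0.0823. With library totals in place of the deposited size factors it passed (-1.81, limma adjusted p = 0.0491), scaled on the Sertoli cell list it passed (-2.21, limma adjusted p = 0.0159), and without Eif5 cKO replicate 1 it passed (-2.34, limma adjusted p = 0.00129). Without Eif5 cKO replicate 2, control replicate 1 or control replicate 2 it did not pass (-1.18, -1.74 and -1.79, limma adjusted p = 0.142, 0.720 and 0.576). The value was negative in each of the 15 alternatives run, from -2.34 to -1.18. Among these, the other filters and the replicate block left the estimate unchanged and could not have turned its sign.

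Sohlh2 (chromosome 3, 55182044 to 55209957) had values of 30.7 and 83.4 in Eif5 cKO replicates 1 and 2, against 115 and 83.8 in control replicates 1 and 2. The groups were apart by the small gap between Eif5 cKO replicate 2 and control replicate 2, and the low value was that of Eif5 cKO replicate 1. The mean was 57.1 ± 37.3 in Eif5 cKO and 99.4 ± 22.1 in control (SD, n = 2 each). This made a log2 fold change of -0.94 (SE 0.38, 95% interval -1.71 to -0.17), with a limma adjusted p of 0.337. A single library decided this value. Without Eif5 cKO replicate 1 it was -0.23 (limma adjusted p = 0.886), and without Eif5 cKO replicate 2 it was -1.65 and passed (limma adjusted p = 0.00658). Without control replicates 1 and 2 in turn it was -0.71 and -1.17.

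Its partner Sohlh1 (chromosome 2, 25842995 to 25847248) had values of 124 and 65.5 in Eif5 cKO replicates 1 and 2, against 113 and 141 in control replicates 1 and 2. Eif5 cKO replicate 1 lay between the controls and Eif5 cKO replicate 2 below them, so the groups overlapped. The mean was 94.7 ± 41.2 in Eif5 cKO and 126.9 ± 20.2 in control (SD, n = 2 each), with a log2 fold change of -0.48 (SE 0.32) and a limma adjusted p of 0.630. It moved to -0.93 without Eif5 cKO replicate 1 and to -0.03 without Eif5 cKO replicate 2. The library that was low for Sohlh2 was thus the one that was not low for Sohlh1. Sohlh1 took 68.1% and 40.8% of the reads of the 3 differentiating factors in Eif5 cKO replicates 1 and 2, against 38.5% and 49.2% in control replicates 1 and 2. Sohlh2 took 16.9% and 52.0% in Eif5 cKO replicates 1 and 2, against 39.4% and 29.2% in control replicates 1 and 2.

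**Figure D2:**
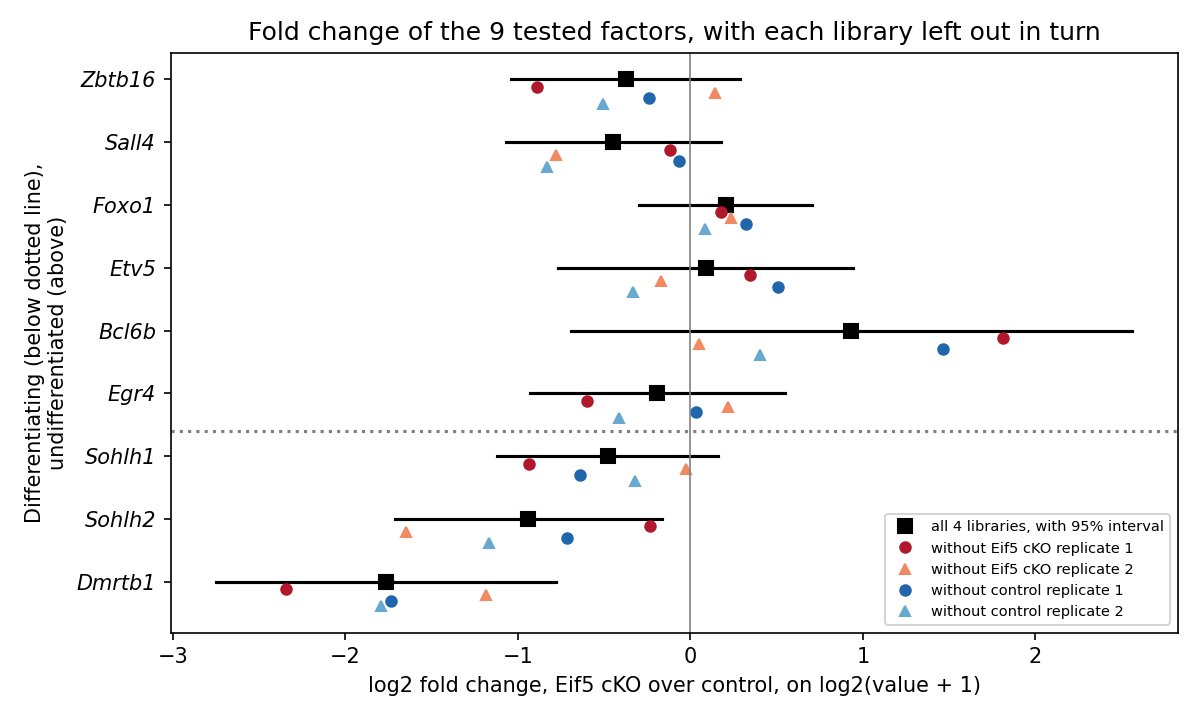
Log2 fold change of Eif5 cKO over control on the log2(value + 1) scale (x axis) for the 9 tested factors (y axis); squares and lines are the limma value and 95% interval with all 4 libraries, and coloured points leave out 1 library each. All points of Dmrtb1 are negative, while those of Zbtb16, Etv5 and Egr4 fall on both sides of 0.

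Among the undifferentiated factors, Foxo1 (chromosome 3, 52268337 to 52350109) encodes a forkhead factor that is held out of the nucleus by PI3K and AKT signalling and is needed for stem cell maintenance. Its values were 252 and 242 in Eif5 cKO, against 233 and 197 in control. Both Eif5 cKO libraries lay above both controls, by a small margin. The mean was 247 ± 7.04 in Eif5 cKO and 215 ± 24.9 in control (SD, n = 2 each), with a log2 fold change of 0.21 (SE 0.25, 95% interval -0.29 to 0.71) and a limma adjusted p of 0.826. Without control replicates 1 and 2 in turn it was 0.32 and 0.09. Scaled on the Sertoli cell list the value was -0.26, and the interval holds changes of either sign.

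Zbtb16 (chromosome 9, 48651797 to 48836225), which encodes the zinc finger repressor PLZF needed for stem cell self-renewal, had values of 124 and 60.1 in Eif5 cKO, against 123 and 102 in control. Eif5 cKO replicate 1 matched the higher control and Eif5 cKO replicate 2 lay below both. The log2 fold change was -0.37 (SE 0.33, limma adjusted p = 0.732). Without Eif5 cKO replicate 2 the sign turned, to 0.14. Sall4 (chromosome 2, 168748332 to 168767201), a zinc finger factor that binds PLZF, had values of 81.8 and 130.1 in Eif5 cKO, against 184 and 108 in control. The groups overlapped, since Eif5 cKO replicate 2 exceeded control replicate 2. The log2 fold change was -0.45 (SE 0.31, limma adjusted p = 0.645), and it was -0.06 without control replicate 1, the library with the high value, and -0.83 without control replicate 2. Without Eif5 cKO replicates 1 and 2 in turn it was -0.12 and -0.78.

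Etv5 (chromosome 16, 22381313 to 22439570), a GDNF-responsive ETS factor that Sertoli cells also express, had values of 39.8 and 57.4 in Eif5 cKO, against 60.4 and 33.3 in control. The Eif5 cKO values lay between the controls, and the log2 fold change was 0.09 (SE 0.42, limma adjusted p = 0.965), or -0.36 when scaled on the Sertoli cell list. Egr4 (chromosome 6, 85511121 to 85513589), an early growth response zinc finger factor, had values of 82.9 and 46.7 in Eif5 cKO, against 83.2 and 60.8 in control. Its groups overlapped, with a log2 fold change of -0.19 (SE 0.37, limma adjusted p = 0.903). Leaving out Eif5 cKO replicate 2 turned the sign, to 0.22, and leaving out control replicate 1 gave 0.03.

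Bcl6b (chromosome 11, 70224127 to 70229798), a BTB zinc finger repressor, had values of 9.09 and 33.2 in Eif5 cKO, against 13.1 and 5.74 in control. A single library, Eif5 cKO replicate 2, was high with 37 reads, where Eif5 cKO replicate 1 had 8 and control replicates 1 and 2 had 16 and 5. This made a log2 fold change of 0.93 (SE 0.80, 95% interval -0.69 to 2.56, limma adjusted p = 0.730), and it was 0.05 without that library and 1.81 without Eif5 cKO replicate 1. Id4 (chromosome 13, 48261116 to 48266028), an inhibitor of helix-loop-helix factors that marks stem cells, had values of 1.14 and 8.07 in Eif5 cKO, against 4.90 and 23.0 in control. It was covered by 1 and 9 reads in Eif5 cKO (exact 95% Poisson intervals 0.0253 to 5.57 and 4.12 to 17.1), against 6 and 20 reads in control (2.20 to 13.1 and 12.2 to 30.9). Eif5 cKO replicate 2 had a higher value than control replicate 1, so the groups overlapped. Id4 did not enter the fit because of the filter on low reads. With no filter its log2 fold change was -1.43 (SE 1.01, 95% interval -3.45 to 0.59, limma adjusted p = 0.697), an interval that holds changes of either sign.

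For most of the factors, the pair of Eif5 cKO replicates lay further apart than counting error allows. The fold between replicate 1 and replicate 2, with an exact 95% interval for counting error, excluded 1 for 7 of the 9 tested factors in Eif5 cKO, and for 3 of the 9 in control. Over all genes tested, this was so for 41.0% of genes in Eif5 cKO and 35.2% in control. Genes with more reads have narrower intervals. In Eif5 cKO, replicate 1 had the higher value for Zbtb16 (2.06-fold, 1.51 to 2.84), Egr4 (1.78-fold, 1.23 to 2.59), Sohlh1 (1.89-fold, 1.39 to 2.58) and Dmrtb1 (2.34-fold, 1.14 to 5.00). Replicate 2 had the higher value for Sall4, Bcl6b and Sohlh2, where replicate 1 over replicate 2 was 0.629 (0.467 to 0.840), 0.274 (0.110 to 0.597) and 0.368 (0.230 to 0.569). Factors of each stage were thus found on both sides. In control, Sall4 (1.71-fold), Etv5 (1.81-fold) and Sohlh2 (1.37-fold) were higher in replicate 1. The intervals of Foxo1 included 1 in both groups.

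**Figure D3:**
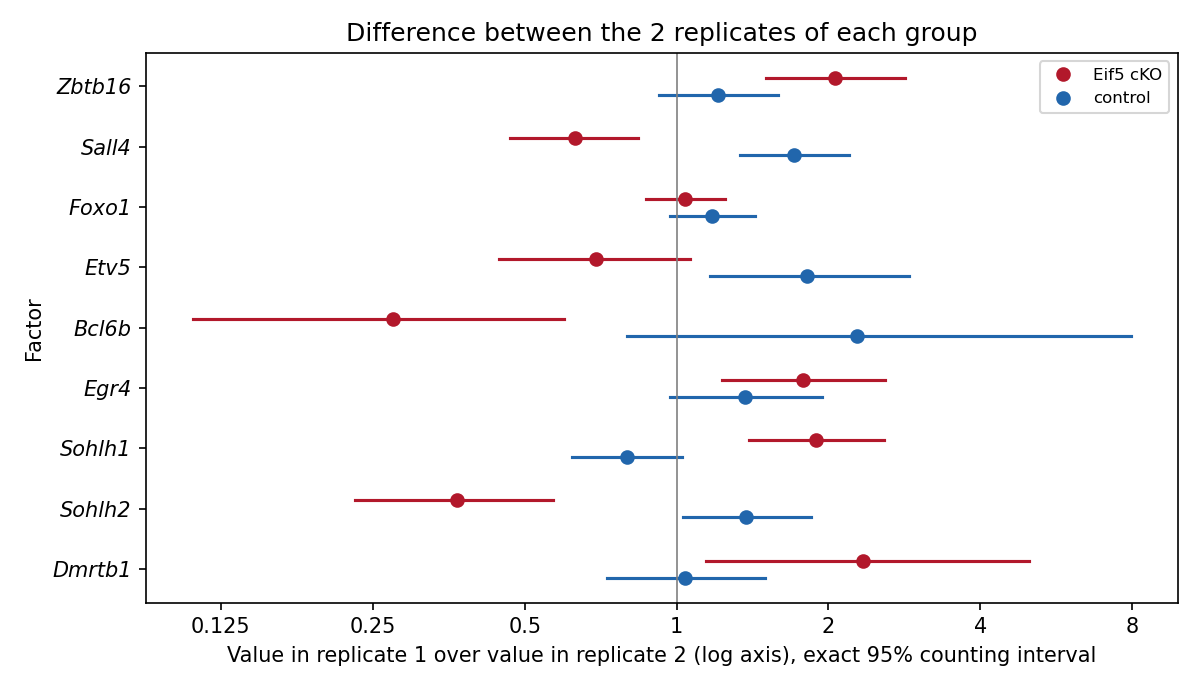
Value in replicate 1 over value in replicate 2 (x axis, log scale) for each tested factor (y axis) in Eif5 cKO (red) and control (blue), with exact 95% intervals for counting error. In Eif5 cKO the intervals of 7 of 9 factors exclude 1, with 4 factors to the right of 1 and 3 to the left.

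Both stages were then compared within each library, where the scaling of libraries has no part. Reads of some factors, such as Etv5, may come in part from Sertoli cells. The part of such reads in the comparison was not tested. The reads of the 3 differentiating factors per read of the 7 undifferentiated factors were 0.308 and 0.278 in Eif5 cKO, against 0.416 and 0.541 in control. Both Eif5 cKO libraries lay below both controls, an order that did not hold with Sohlh2 left out of the sums. The mean ratio was 0.293 ± 0.0210 in Eif5 cKO and 0.479 ± 0.0883 in control (SD, n = 2 each), a difference of -0.70 on the log2 scale, given with no test. As a share of the reads of all 10 factors, the differentiating factors took 23.5% and 21.7% in Eif5 cKO (exact 95% binomial intervals 20.4% to 26.9% and 18.98% to 24.7%), against 29.4% and 35.1% in control (26.8% to 32.0% and 31.6% to 38.7%). The intervals of Eif5 cKO replicate 1 and control replicate 1 met at their ends, and they cover counting error only.

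The sums behind this ratio were read separately. The summed value of the differentiating factors was 182 and 161 in Eif5 cKO, against 292 and 287 in control. That of the undifferentiated factors was 591 and 578 in Eif5 cKO, against 702 and 530.3 in control, so the Eif5 cKO libraries lay between the controls. Foxo1 gave 42.7% and 41.9% of the undifferentiated reads in Eif5 cKO, against 33.1% and 37.2% in control. With Foxo1 left out of the sums, the ratio was 0.537 and 0.479 in Eif5 cKO, against 0.623 and 0.862 in control, a difference of -0.53 on the log2 scale. With Sohlh1 left out it was 0.0981 and 0.165 in Eif5 cKO, against 0.256 and 0.275 in control, a difference of -1.06 on the log2 scale. Taken singly against the undifferentiated sum, Dmrtb1 stood at 0.0462 and 0.0202 in Eif5 cKO, against 0.0919 and 0.117 in control, and Sohlh2 at 0.0519 and 0.144 in Eif5 cKO, against 0.164 and 0.158 in control. Sohlh1 stood at 0.210 and 0.113 in Eif5 cKO, against 0.160 and 0.266 in control, and its groups overlapped. With Sohlh2 left out, Sohlh1 and Dmrtb1 together stood slightly higher in Eif5 cKO replicate 1 than in control replicate 1. The groups then overlapped, so their separation in the full ratio rested on the low Sohlh2 value of Eif5 cKO replicate 1.

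**Figure D4:**
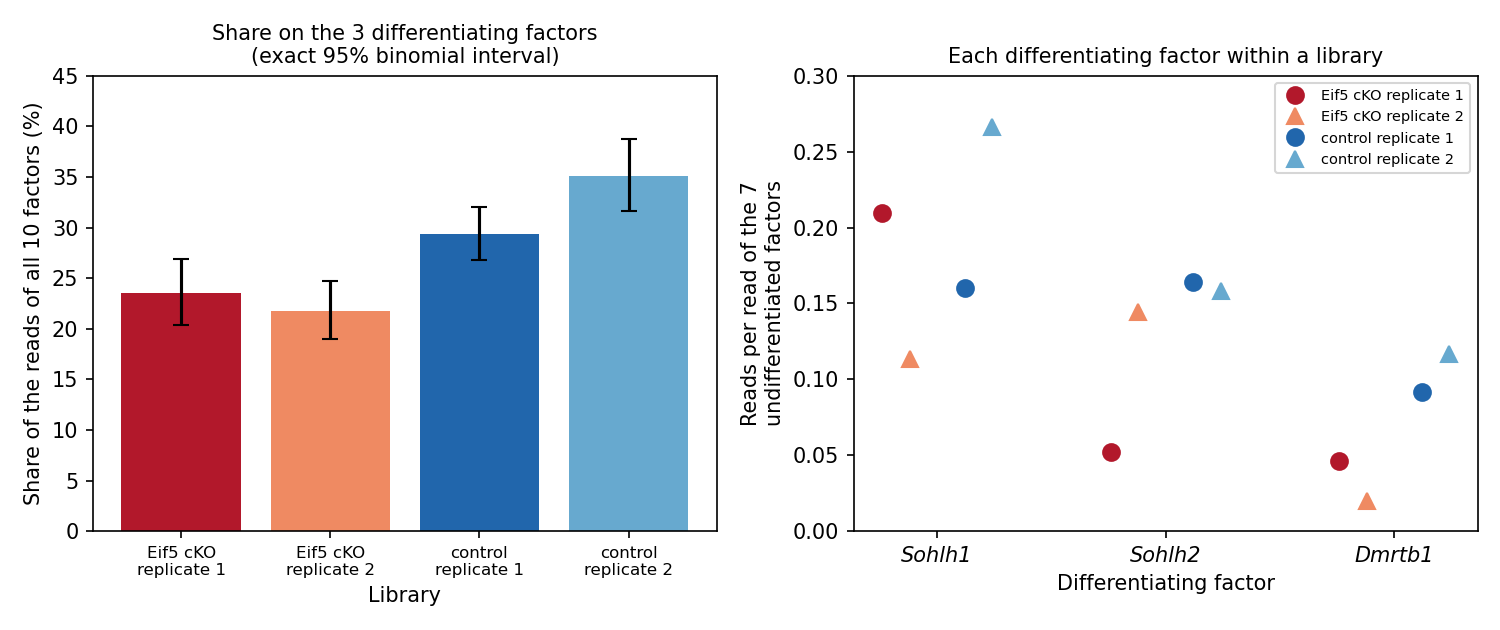
Left, share of the reads of all 10 factors that fell on the 3 differentiating factors in each library (%, bars, with exact 95% binomial intervals); right, reads of each differentiating factor per read of the 7 undifferentiated factors (points, 1 per library). The share is 23.5% and 21.7% in Eif5 cKO against 29.4% and 35.1% in control, and Sohlh1 is the factor whose groups overlap on the right.

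Other genes of the same stages were read from lists. For undifferentiated spermatogonia the list held 24 other genes, of which 16 were tested and 0 passed, with a median log2 fold change of -0.12. Without Eif5 cKO replicates 1 and 2 in turn the median was -0.04 and -0.11, and without control replicates 1 and 2 it was -0.06 and -0.32. Of the genes tested, 4 had an unadjusted limma p under 0.05, against 10.6% of all genes. Epha2 was positive, and Taf4b, Fgfr3 (-2.16, SE 1.03) and Rarg (-1.73, SE 0.79) were negative. Fgfr3 rested on 7 and 1 reads in Eif5 cKO, against 14 and 23 in control. It passed the filter on low reads only through the control libraries, which favours a negative value, so its sign and p are not support for a change. Rarg rested on 2 and 22 reads in Eif5 cKO, against 41 and 18 in control. Without Eif5 cKO replicate 2, Epha2 rose and Rarg, named after its values were seen, fell. Epha2, an ephrin receptor gene, and Taf4b, a TFIID subunit gene needed for long-term germ cell maintenance, had the smallest p, at 0.70 (SE 0.26) and -0.67 (SE 0.27), with limma adjusted p = 0.269 and 0.322. Taf4b passed when libraries were scaled on the Sertoli cell list. For differentiating spermatogonia, 4 of 12 other genes fell and 0 rose, where 0.604% of all genes fell, and the median was -0.49. They were Stra8, which retinoic acid induces before meiosis (-1.53, SE 0.24), the X-linked homeobox genes Rhox13 (-1.78, SE 0.30) and Esx1 (-1.79, SE 0.33), and Taf7l, a germ cell paralogue of a TFIID subunit (-1.002, SE 0.23). Without control replicate 1, 0 of the 12 passed, and without Eif5 cKO replicate 1 or control replicate 2, the others but not Taf7l did. Esx1 had values of 65.9 and 35.9 in Eif5 cKO, against 199 and 146 in control. Taf7l had values of 306 and 375 in Eif5 cKO, against 792 and 582 in control. In both genes each Eif5 cKO library lay below each control. Fold changes were negative for 10 of the 12 genes and positive for Ccnd2 (0.38, SE 0.23) and Dnmt3a (0.23, SE 0.26). Kit, at -0.48 (SE 0.22), did not pass. Of the 16 genes of meiotic prophase 13 were tested, and 10 of these fell, with a median of -1.57. Those with the smallest p were Sycp1 and Stag3, which build the chromosome axis and synaptonemal complex (-1.77, SE 0.26, and -1.57, SE 0.24), and the others were Smc1b, Tex12, Sycp2, Sycp3, Syce1, Syce2, Hormad1 and Mei1. Without control replicates 1 and 2 in turn, 0 and 3 meiotic genes passed. Medians are taken over members that passed the filter on low reads, and a difference between the lists was not tested.

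**Figure D5:**
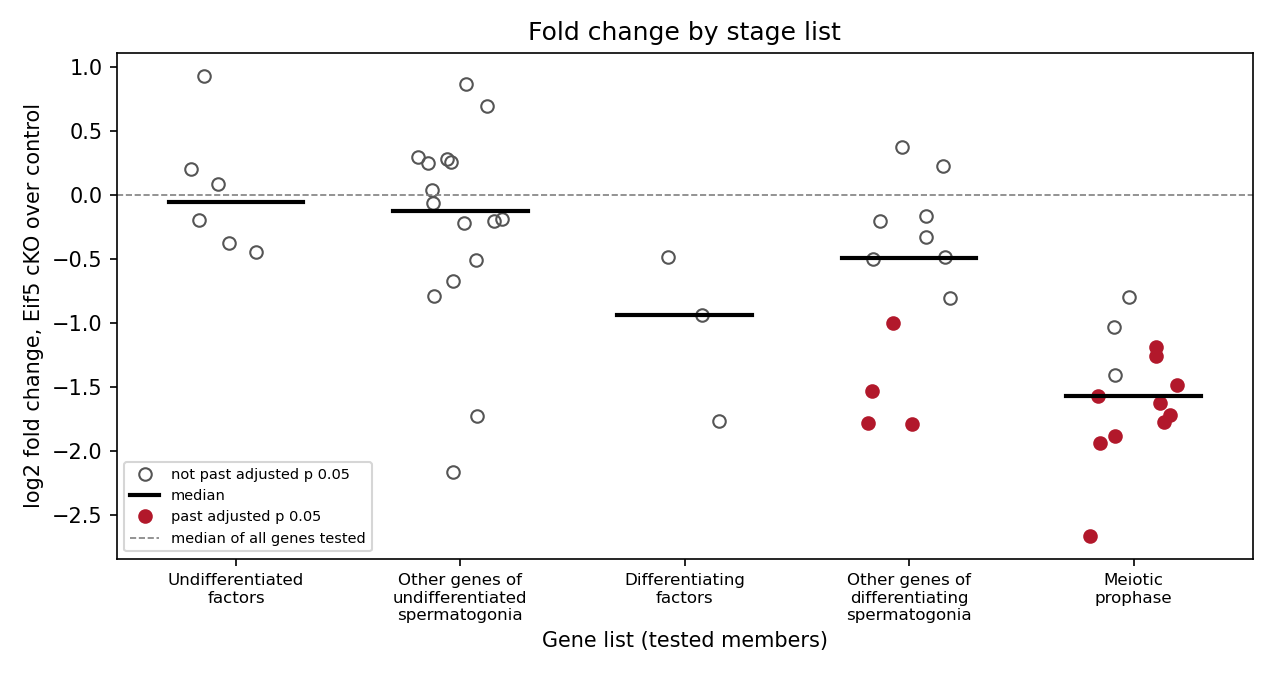
Log2 fold change of Eif5 cKO over control (y axis) of the tested genes of 5 stage lists (x axis); filled points passed a limma adjusted p of 0.05, thick lines are list medians and the dashed line is the median of all genes tested. Medians are -0.05 and -0.12 for both undifferentiated lists, -0.94 and -0.49 for both differentiating lists and -1.57 for meiotic prophase. Pan-germ-cell markers, which are not drawn, had a median of -0.88.

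Relatives of the factors were also read, since related factors can be made by somatic cells. Of 21 family relatives (such as other SALL, FOXO, ETV, EGR, ID and DMRT genes) 13 were tested and 0 passed. Their median was 0.33, or -0.13 when scaled on the Sertoli cell list, and Sall2 (0.51, SE 0.27) and Foxo4 (0.65, SE 0.38) had the smallest p, with limma adjusted p = 0.515 and 0.571. Dmrt1, a relative of Dmrtb1 that Sertoli cells also express and that represses meiosis in spermatogonia, had values of 951 and 752 in Eif5 cKO, against 1029 and 917 in control, a log2 fold change of -0.20 (SE 0.23, limma adjusted p = 0.812). It was chosen after its values were seen. Of the 3 E-proteins that ID factors bind, 0 passed, and Tcf4 (0.66, SE 0.30) and Tcf3 (0.26, SE 0.26) had the smallest p.

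Lists of cell type markers were read to place these values in the tissue. Over all genes tested 0.604% fell and 0.0744% rose. Of 12 pan-germ-cell markers, 6 fell and 0 rose, and their summed value was 2628 and 3056 in Eif5 cKO, against 6137 and 5797 in control. All 12 had negative fold changes, with a median of -0.88, so negative values were not limited to the lists of differentiating spermatogonia and meiosis. The groups did not overlap, with Eif5 cKO lower, for 11 of the 12, against 20.9% of all genes tested. Without either control replicate, 1 of these markers passed. Of 14 tested Sertoli cell markers 1 rose (Hsd17b1) and 0 fell, and Hsd17b1 did not pass without Eif5 cKO replicate 1, without either control replicate or when scaled on the Sertoli list. Of the 14, 13 had positive fold changes and 1 negative, with a median of 0.40. The groups did not overlap, with Eif5 cKO higher, for 9 of them, against 20.0% of all genes tested. The summed Sertoli value was 96296 and 67390.4 in Eif5 cKO, against 49995 and 69458 in control, so the sums overlapped. Most of each sum was Clu, at 70687 and 48370.5 in Eif5 cKO, against 35567.6 and 52646.1 in control. The 8 Leydig cell markers had positive fold changes, with 0 passing on all libraries, 1 without Eif5 cKO replicate 1 and 3 without Eif5 cKO replicate 2. They summed to 3182 and 2878 in Eif5 cKO, against 1786 and 2164 in control. Macrophage markers summed to 1561 and 1639 in Eif5 cKO, against 1070 and 1287 in control, with 0 of 8 passing. Peritubular myoid markers summed to 5897 and 4700.5 in Eif5 cKO, against 5930 and 6177 in control, and endothelial markers to 1417 and 1042 in Eif5 cKO, against 1063 and 1183 in control, with 0 of 6 and 0 of 8 passing. No marker of these 6 lists was at 0 in any library. The part of cell composition in the values of the 10 factors was not tested.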

How the data were processed

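Ribosome footprints of 4 whole-testis samples were obtained with a commercial kit, per the labels' protocols. The submitters' processing notes name Bowtie2, STAR, featureCounts and the build GRCm38. No source used here gives the strand or multi-mapping settings, so reads of Zbtb16, Sall4, Id4 and Dmrtb1, whose spans overlap other RefSeq genes, may include reads of those. The deposited signal is named raw counts in the header but holds reads divided by a size factor. Whole reads were recovered for 100% of values (relative tolerance 1e-06), and edgeR 4.0.16 on them called 92 genes.

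log2(value + 1) was fitted with limma 3.58.1 (R 4.3.3, intensity trend, group as the term) over 12095 genes passing filterByExpr (minimum count 10), with two-sided p-values adjusted by Benjamini-Hochberg. This scale understates changes of low genes. With 2 samples against 2, a permutation of labels cannot give p below 0.333, so calls rest on variance pooled over genes (residual degrees of freedom 2, prior 37). Scripts were tested on simulated data. The members and lists were chosen with earlier results of these data known. The genes named were Eif5, the 10 members, and, in each gene list other than the cell type markers, those past the threshold and the 2 with the smallest p. Rarg, Fgfr3, Ccnd2, Dnmt3a, Kit, Dmrt1, Hsd17b1 and Clu were named after their values were seen. Gene positions came from RefSeq, where all 10 members matched. RNA libraries were not analysed here. Alternatives were other tests (edgeR, DESeq2 1.42.0, limma-voom), scalings, pseudocounts of 0.5 and 4, filters, each library left out, and a replicate block.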

Additional observations from a re-analysis of the deposited data

How the results depend on the processing

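limma called 82 genes in all and 0 of the factors. Scaling the libraries on the Sertoli list shifted the median of all genes to -0.45, called 396 genes and 1 factor (Dmrtb1, -2.21, adjusted p = 0.0159), and gave medians of -0.50 for the undifferentiated and -1.39 for the differentiating factors. The fold changes of Foxo1 and Etv5 reversed there, to -0.26 and -0.36. Library totals called 1 factor, Dmrtb1. Leaving out each library in turn gave 10 to 346 called genes (10 and 20 without control replicates 1 and 2, 127 and 346 without Eif5 cKO replicates 1 and 2) and 0 to 1 called factors. In these fits the undifferentiated median ran from -0.37 to 0.18, the differentiating median from -1.18 to -0.71, and the log2 difference of the ratio between stages from -0.89 to -0.51. Signs also turned without Eif5 cKO replicate 2 for Zbtb16 (0.14), Etv5 (-0.17) and Egr4 (0.22), without control replicate 1 for Egr4 (0.03) and without control replicate 2 for Etv5 (-0.33). Leaving Sohlh1 out of the sums, an alternative chosen after seeing the data, moved the ratio difference from -0.70 to -1.06. Leaving out Foxo1, also unplanned, gave -0.53, which did not move it beyond the spread between replicates. With Sohlh2 left out, the groups of the ratio overlapped. Over the fits with each library left out in turn, Etv5 ran from -0.33 to 0.51, Egr4 from -0.60 to 0.22 and Zbtb16 from -0.89 to 0.14. The causes were not tested. The replicate numbers do not show pairing (correlation of deviations -0.05), and the replicate block called 100 genes and 0 factors. DESeq2 called 67 genes and gave no adjusted p for Bcl6b. The signs of Dmrtb1, Sohlh1, Sohlh2 and Sall4 were negative in all 15 alternatives, of which the filters and the replicate block could not turn a sign. Depth limits Id4 and Bcl6b most among the factors, with 1 to 20 and 5 to 37 reads a library.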
